A study of Mus musculus with 6 samples.

Results

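The BCL2 family decides at the mitochondrion whether a cell survives or dies by apoptosis, and 10 of its genes were followed in the mouse spinal cord after a contusion. The members were chosen by symbol, as 4 guardians (Bcl2, Bcl2l1, Mcl1 and Bcl2a1b), the effectors Bax and Bak1, and 4 BH3-only genes (Bbc3, Pmaip1, Bcl2l11 and Bid). All 10 were found among the 43432 gene identifiers of the count tables, and 9 passed the filter on low counts. SCI mice were wildtype C57BL/6 animals that received a one-sided contusion of the cord at cervical level 5 with a set force of 50 kdyn, and their cord was taken 4 h later (n = 3). Sham mice were wildtype C57BL/6 animals with the laminectomy alone, the opening of the vertebral bone that SCI mice also received to expose the cord (n = 3). The collection time of sham tissue, the age and the sex of the mice were not used here.

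Guardians such as BCL2, BCL-XL (the main product of Bcl2l1), MCL1 and A1 (the product of the Bcl2a1 genes) hold the effectors BAX and BAK in check. BH3-only proteins are the sensors of damage: PUMA (Bbc3), NOXA (Pmaip1), BIM (Bcl2l11) and BID bind the guardians, and some of them also activate BAX and BAK directly, after which the outer mitochondrial membrane opens, cytochrome c escapes and caspases are switched on. Much of this control acts on the proteins, so a transcript level is one layer of it. In the nervous system BCL-XL is the guardian that adult neurons chiefly depend on, and MCL1 is a short-lived protein that must be made continually.

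The libraries were of a kind that reads 1 fragment near the poly(A) end of each transcript, so a count does not grow with transcript length. Levels are in CPM, the usual rate of counts relative to library size, with library sizes scaled by TMM, the trimmed mean of M-values. Total counts were between 5364263 and 8229961 in SCI libraries and between 3407176 and 11543633 in sham libraries, and 1 count was worth between 0.0866 and 0.293 CPM. Neuronal markers held 0.558 to 0.614% of counts in SCI libraries and 0.462 to 0.805% in sham libraries. Hepatocyte markers led by Alb and Ttr were also present in every library, at 8.02 to 8.30% of counts in SCI and 6.39 to 11.9% in sham, highest in sham 2 and lowest in sham 3. Where that RNA came from was not tested. Of 13 cell type lists, 10 had no member past the test, which 0.929% of all genes tested passed. The exceptions were erythroid (5 of 7 tested higher), Schwann cell (1 of 6 higher) and homeostatic microglia (1 of 10 lower). In bulk tissue a change in the number of cells of a type cannot be told apart from a change in RNA per cell.

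Promoter windows are shown for Bcl2l1 and Mcl1, the guardians whose transcripts were higher in every SCI library, and for Bcl2a1b, the member from the Bcl2a1 cluster. Bcl2a1b did not pass the filter on low counts. Most reads of its cluster were assigned to the copy Bcl2a1a, whose window is not shown. Each window runs from 250 bases before to 50 bases after a transcript start of RefSeq on GRCm38.p6 and is written 5′ to 3′ on the strand of the gene. Bcl2l1 has 3 such windows, and the outermost is printed, at chr2:152831679-152831978 on the minus strand. The Mcl1 window is at chr3:95658471-95658770 and the Bcl2a1b window at chr9:89199023-89199322, both on the plus strand. Capitals mark matches on either strand to the AP-1 motif TGANTCA, the CRE motif TGACGTCA, the STAT motif TTCNNNGAA, the EGR motif GCGNGGGCG or the GC box GGGCGG.
Bcl2l1: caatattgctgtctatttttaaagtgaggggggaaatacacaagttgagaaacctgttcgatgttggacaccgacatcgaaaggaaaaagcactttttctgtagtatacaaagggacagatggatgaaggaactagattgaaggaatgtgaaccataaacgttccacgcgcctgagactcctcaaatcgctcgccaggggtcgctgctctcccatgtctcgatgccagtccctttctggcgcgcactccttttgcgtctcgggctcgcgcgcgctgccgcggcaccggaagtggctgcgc
Mcl1: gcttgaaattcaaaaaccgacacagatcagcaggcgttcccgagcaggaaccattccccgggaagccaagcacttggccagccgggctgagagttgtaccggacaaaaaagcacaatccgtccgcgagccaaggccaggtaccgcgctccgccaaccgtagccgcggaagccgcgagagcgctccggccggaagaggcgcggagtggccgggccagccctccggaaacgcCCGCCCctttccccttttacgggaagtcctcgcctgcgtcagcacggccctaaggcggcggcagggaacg
Bcl2a1b: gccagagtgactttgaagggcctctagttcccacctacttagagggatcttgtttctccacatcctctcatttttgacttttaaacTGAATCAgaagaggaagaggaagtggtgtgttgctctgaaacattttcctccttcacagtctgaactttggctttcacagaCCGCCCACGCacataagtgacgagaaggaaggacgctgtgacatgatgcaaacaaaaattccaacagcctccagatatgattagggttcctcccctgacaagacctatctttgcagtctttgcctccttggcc

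Across all 32851 windows of the mouse table, 7.81% held the AP-1 letters, 1.79% the CRE, 8.30% the STAT, 5.55% the EGR and 35.66% the GC box. The printed Bcl2l1 window held none of them, nor did its other windows. The Mcl1 window held 1 GC box. The Bcl2a1b window held 1 AP-1 match, 1 EGR match and 1 GC box, the last of which overlaps the EGR match. A match is a description of the letters, and no match says only that these letters are not in the window.

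Among the guardians, Bcl2l1 rose after contusion, Mcl1 was higher in every SCI library without passing the test, and Bcl2 did not move beyond its spread. Bcl2l1 (ENSMUSG00000007659, chromosome 2, 152780668 to 152831728, GRCm38) was at 76.3, 84.7 and 96.3 CPM in SCI libraries 1 to 3, against 42.7, 46.6 and 49.5 CPM in sham libraries 1 to 3. The lowest SCI library thus lay well above the highest sham library. Mean levels were 85.8 ± 10.03 CPM in SCI and 46.2 ± 3.40 CPM in sham (SD, n = 3 each), a 1.86-fold difference. On the log2 scale it was higher by 0.89 ± 0.18 (SE), with a Benjamini-Hochberg adjusted p of 0.0186 in edgeR's quasi-likelihood test. It was the only member past the threshold of 0.05, 1 of 9 tested, where 0.885% of the 13560 genes tested were called higher and 0.0442% lower, 0.929% in all. None of the 9 was called lower with edgeR, DESeq2 or limma voom, and the 3 members with an unadjusted edgeR p under 0.05 (Bcl2l1, Mcl1 and Pmaip1) were all higher in SCI; over all genes 7.38% had such a p in either direction.

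The size of the Bcl2l1 difference kept to a log2 fold change of 0.79 to 0.97 whichever library was left out, while the call did not. The adjusted p was 0.0593, 0.0995 and 0.104 without SCI 1, SCI 2 and SCI 3, and 0.236 without sham 1. Without sham 2 or sham 3, the libraries with the most and the least hepatocyte transcripts, it was 0.0121 and 0.00957. BCL-XL is also the guardian of maturing red cells, and erythroid markers held 0.305, 0.174 and 0.406% of counts in SCI 1 to 3, against 0.0884, 0.0724 and 0.0705% in sham 1 to 3. Of the erythroid list, 5 of 7 tested genes were higher, all of them globins or the haem enzyme gene Alas2. Among the injured cords, SCI 3 was highest in both erythroid share and Bcl2l1, SCI 2 was lowest in the share and SCI 1 was lowest in Bcl2l1. The part of red cells in the Bcl2l1 difference was not tested.

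Mcl1 (ENSMUSG00000038612, chromosome 3, 95658788 to 95663176) was at 85.01, 97.2 and 80.9 CPM in SCI libraries 1 to 3, against 55.9, 57.6 and 50.005 CPM in sham libraries 1 to 3. The groups did not overlap. Means were 87.7 ± 8.47 CPM in SCI and 54.5 ± 4.003 CPM in sham (SD, n = 3 each), with a log2 fold change of 0.68 ± 0.17 (SE, edgeR adjusted p = 0.109). Mcl1 passed with the DESeq2 Wald test (adjusted p = 0.0363) and in edgeR once the hepatocyte level entered as a covariate (adjusted p = 0.00263), at log2 fold changes of 0.68 and 0.69. Of the 9 tested members, 3 (Bcl2l1, Mcl1 and Pmaip1) had every SCI library above every sham library, where 7.73% of all genes tested did. No member had every SCI library below every sham library, where 5.94% of all genes did.

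Bcl2, the founding member (ENSMUSG00000057329, chromosome 1, 106538178 to 106714274), was at 23.6, 25.05 and 18.0 CPM in SCI libraries 1 to 3, against 26.5, 18.3 and 32.7 CPM in sham libraries 1 to 3. The groups overlapped fully, sham 3 was the highest library and SCI 3 the lowest. The log2 fold change was -0.19 ± 0.23 (SE, edgeR adjusted p = 0.932). Set against Bcl2 within the same library, where the scaling of libraries drops out, the reads of Bcl2l1 numbered 3.23, 3.38 and 5.35 per Bcl2 read in SCI 1 to 3, against 1.61, 2.54 and 1.51 in sham 1 to 3. For Mcl1 they were 3.60, 3.88 and 4.49 per Bcl2 read in SCI 1 to 3, against 2.11, 3.14 and 1.53 in sham 1 to 3. In each of these ratios every SCI library was above every sham library. Both were chosen after their values were seen and carry no test. Between the risen guardian and its neighbour in level, Mcl1 to Bcl2l1, the ratio was 1.03 ± 0.169 in SCI and 1.19 ± 0.156 in sham (SD, n = 3 each), and the groups overlapped.

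**Figure D1:**
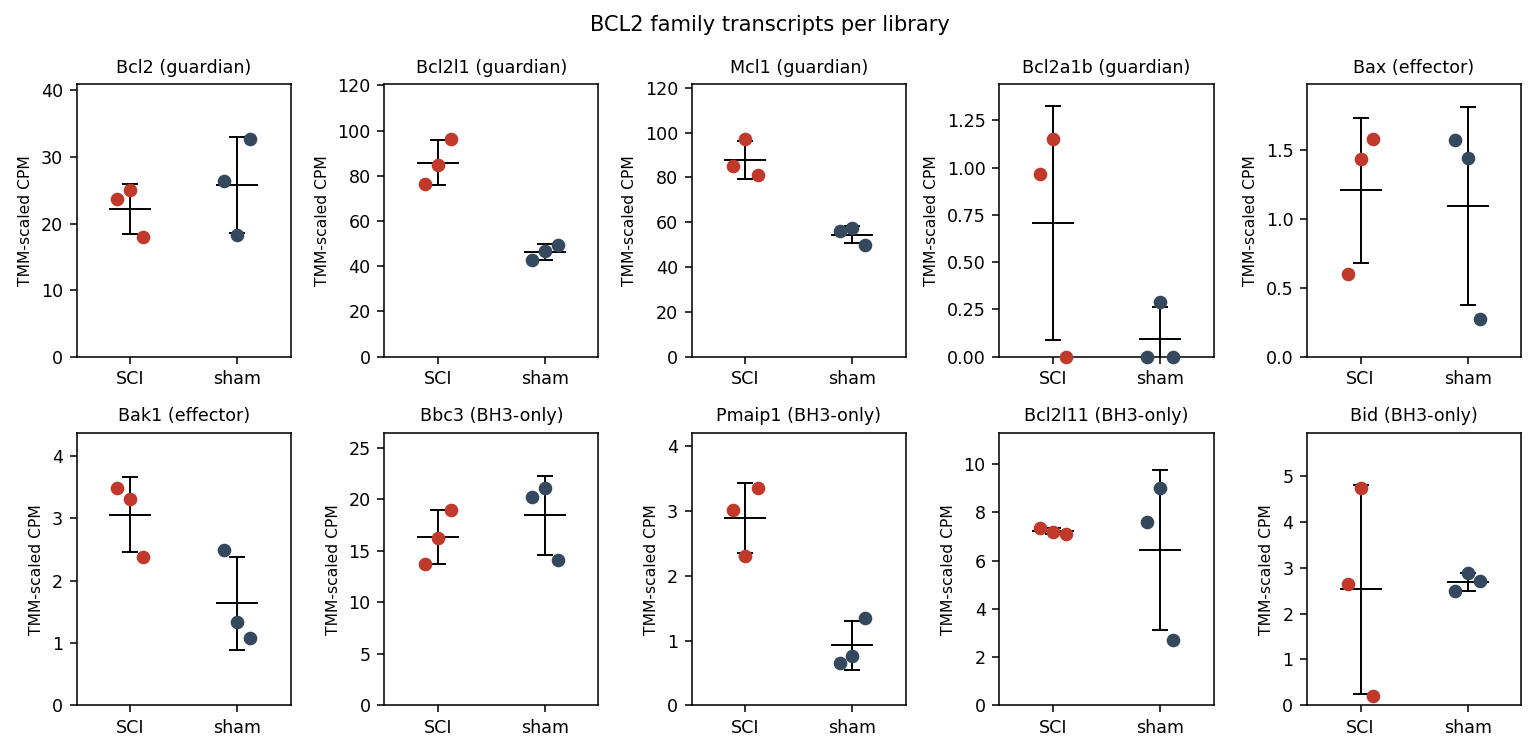
TMM-scaled CPM (vertical axes, each from 0) of the 10 BCL2 family genes in the 3 SCI libraries (left, red) and the 3 sham libraries (right, dark), with the mean as a bar and the SD as whiskers that are cut at 0. The SCI and sham points are apart for Bcl2l1, Mcl1 and Pmaip1 and mixed for the other genes.

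The Bcl2a1 genes code for A1, a guardian known from myeloid cells and lymphocytes, and lie as near copies on chromosome 9. Bcl2a1b (ENSMUSG00000089929, 89199209 to 89207827) had 8, 8 and 0 counts in SCI libraries 1 to 3, against 0, 3 and 0 counts in sham libraries 1 to 3. It did not reach the filter on low counts. Its summed counts of 16 in SCI and 3 in sham gave a ratio per total counts of 5.98, with an exact 95% counting interval of 1.71 to 32.04. Most reads of the cluster were assigned to the copy Bcl2a1a (88956900 to 88962419), with 19, 18 and 14 counts in SCI libraries 1 to 3, against 1, 0 and 2 counts in sham libraries 1 to 3. Bcl2a1a was called higher with a log2 fold change of 3.97 ± 0.78 (SE, edgeR adjusted p = 0.0196), which rests on 3 sham counts, and its count ratio was 19.1 with an exact 95% counting interval of 6.17 to 95.5. That call was lost without any single library other than sham 3, with an adjusted p of 0.0703 to 0.171. The copy Bcl2a1d had no count in any library.

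These copies cannot be counted cleanly with short reads. Of the 451 possible reads of 50 bases in the last 500 bases of the Bcl2a1b transcript, 206 (45.7%) occur unchanged in Bcl2a1a and 301 (66.7%) in Bcl2a1d. Bcl2a1b also overlaps the gene Gm29094 by 8449 bases on the same strand, at the end where reads of this kind fall. Gm29094 had 0 counts in every library. How the authors treated reads that match several genes, or that lie in overlapping genes, is not given in the sources used here. Counted together as a single gene, a choice made after seeing the data, the copies had 27, 26 and 14 counts in SCI 1 to 3, against 1, 3 and 2 counts in sham 1 to 3. This came to 3.26 ± 0.487 CPM in SCI and 0.320 ± 0.207 CPM in sham (SD, n = 3 each). The summed gene was higher by 3.46 ± 0.59 on the log2 scale (SE, edgeR adjusted p = 0.00590), with a count ratio of 12.5 (exact 95% counting interval 5.46 to 35.3). Bcl2a1a and the summed gene reached the filter level of 1.42 CPM in all 3 SCI libraries and in 0 sham libraries, so they were tested because of their SCI values and had to differ. The call of the summed gene was lost without SCI 2 (adjusted p = 0.0506) or sham 1 (0.0776) and held without SCI 1 (0.0359), SCI 3 (0.0207), sham 2 (0.0233) and sham 3 (0.00629).

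Neutrophils carry much A1 and MCL1, so the markers of that cell are given beside these genes. The 13 neutrophil markers summed to 0.00587 to 0.00855% of counts in SCI libraries and 0.00217 to 0.00480% in sham libraries. Of the 7 that were tested, none was called by edgeR and 5 had an unadjusted edgeR p under 0.05. In 4, every SCI library was above every sham library. Over all genes tested, 0.929% were called, 7.38% had such a p and 7.73% had every SCI library above every sham library. The most abundant, S100a9, was at 23.6, 30.7 and 28.3 CPM in SCI 1 to 3, against 9.56, 21.3 and 6.49 CPM in sham 1 to 3. S100a8, Retnlg and Mmp8 likewise had every SCI library above every sham library, at fitted ratios of 2.13, 2.60 and 2.703 (edgeR adjusted p = 0.209, 0.383 and 0.428). Mmp8 was at 1.87 to 3.95 CPM in SCI and 0.811 to 1.06 CPM in sham. It reached the filter level of 1.42 CPM in SCI libraries alone, so its groups had to differ. Camp and Mmp9, with ratios of 0.759 and 1.04, overlapped. The surface marker Ly6g was too rare to be tested, with 1, 4 and 0 counts in SCI 1 to 3 and 1, 3 and 0 counts in sham 1 to 3. The part of neutrophils in the Bcl2a1 and Mcl1 differences was not tested.

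The effectors were scarce and did not pass the test. Bax (ENSMUSG00000003873, chromosome 7, 45461697 to 45466898) had 5, 10 and 8 counts in SCI 1 to 3, against 12, 15 and 1 counts in sham 1 to 3. That is 1.21 ± 0.529 CPM in SCI and 1.09 ± 0.717 CPM in sham (SD, n = 3 each), a log2 fold change of -0.06 ± 0.61 (SE, edgeR adjusted p = 0.994). Its sign turned with the processing, and the counting interval of the ratio, 0.507 to 1.66, spans 1. The Bax-to-Bcl2 ratio of reads, a common index of readiness for apoptosis, was 0.0570 ± 0.0312 in SCI and 0.0487 ± 0.0363 in sham (SD, n = 3 each) and overlapped.

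Bak1 (ENSMUSG00000057789, chromosome 17, 27019810 to 27029009) was at 3.50, 3.31 and 2.37 CPM in SCI libraries 1 to 3, against 2.49, 1.34 and 1.08 CPM in sham libraries 1 to 3. Only the lowest SCI library and the highest sham library crossed. The log2 fold change was 0.87 ± 0.45 (SE, edgeR adjusted p = 0.722), about the size of that of Bcl2l1 with a larger error and far fewer reads. Bak1 lies wholly within Ggnbp1 on the opposite strand, which had 31 to 114 counts per library. Ggnbp1 itself ends outside Bak1, at 27037624. How reads within the overlap were counted is not given in the sources used here.

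None of the 4 BH3-only genes passed the test. Pmaip1, the gene of NOXA, a partner that binds MCL1 and A1 (ENSMUSG00000024521, chromosome 18, 66458533 to 66465565), had 25, 16 and 17 counts in SCI 1 to 3, against 5, 8 and 5 counts in sham 1 to 3. Its level was 3.01, 2.30 and 3.36 CPM in the SCI libraries, against 0.655, 0.768 and 1.35 CPM in the sham libraries. The groups did not overlap, and the log2 fold change of 1.73 ± 0.50 was the largest of the 9 tested members but did not pass (SE, edgeR adjusted p = 0.217). The count ratio was 3.61 with an exact 95% counting interval of 2.10 to 6.52. No processing choice that was tried brought Pmaip1 past the test, with an adjusted p of 0.119 to 0.620 over 14 alternatives. Pmaip1 and Bak1 reached the level that the filter asks for in all 3 SCI libraries and in 1 sham library, so they were tested because of their SCI values.

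Bbc3, the gene of PUMA and a p53 target (ENSMUSG00000002083, chromosome 7, 16308393 to 16318205), was the most abundant BH3-only member, at 13.7, 16.3 and 19.0 CPM in SCI libraries 1 to 3, against 20.2, 21.1 and 14.1 CPM in sham libraries 1 to 3. The groups overlapped, with a log2 fold change of -0.21 ± 0.23 (SE, edgeR adjusted p = 0.925). Per read of Bcl2l1, Bbc3 had 0.180, 0.192 and 0.197 reads in SCI 1 to 3, against 0.472, 0.454 and 0.284 reads in sham 1 to 3. Every SCI library was below every sham library in this ratio, which was chosen after its values were seen and has no test.

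Bcl2l11, the gene of BIM (ENSMUSG00000027381, chromosome 2, 128126038 to 128162547), was at 7.36, 7.20 and 7.12 CPM in SCI libraries 1 to 3, against 7.60, 9.03 and 2.703 CPM in sham libraries 1 to 3. The injured cords were nearly alike and sham 3 stood low, with 10 counts. The log2 fold change was 0.09 ± 0.34 (SE, edgeR adjusted p = 0.981), and -0.21 without sham 3. Bcl2l11 had 0.331 ± 0.0569 reads per Bcl2 read in SCI and 0.287 ± 0.205 in sham (SD, n = 3 each), and the groups overlapped.

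Bid, which links death receptors to the mitochondrion (ENSMUSG00000004446, chromosome 6, 120891930 to 120916853), had 22, 33 and 1 counts in SCI 1 to 3, against 19, 30 and 10 counts in sham 1 to 3. SCI 3 stood apart at 0.198 CPM, while the other libraries held 2.49 to 4.75 CPM. With all libraries the log2 fold change was -0.03 ± 0.59, and without SCI 3 it was 0.43 ± 0.43 (SE, edgeR adjusted p = 0.995 and 0.993). The gene overlaps Bcl2l13 on the opposite strand by 913 bases at the end where reads of this kind fall. Bcl2l13 had 201, 143 and 176 counts in SCI 1 to 3, against 182, 307 and 82 counts in sham 1 to 3. Scaled, it was at 24.2, 20.6 and 34.8 CPM in SCI 1 to 3, and SCI 3 was its highest library. Sham 1 to 3 were at 23.8, 29.5 and 22.2 CPM. Whether reads were assigned to the wrong gene of this pair was not tested.

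The order of levels was nearly the same in both groups. In SCI, Mcl1 and Bcl2l1 overlapped at the top, Bcl2 and Bbc3 overlapped with each other below them, Bcl2l11 followed apart from its neighbours, and Bak1, Pmaip1, Bid, Bax and Bcl2a1b, in that order, overlapped each with the next. In sham, Mcl1 was above Bcl2l1 in every library, Bcl2l1 above Bcl2, and Bcl2 overlapped with Bbc3. Bcl2l11, Bid, Bak1, Bax and Pmaip1 followed in that order, each overlapping with the next, and Bcl2a1b was lowest. Pmaip1 was ninth in sham and seventh in SCI, and Bak1 moved above Bid. These levels compare reads per transcript end, and priming that differs between genes was not tested.

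By the root mean square difference between centred log2 CPM over the 6 libraries, the profile most like that of Bcl2l1 among 10470 genes with a mean of at least 5 CPM was that of Zbtb16, a transcription factor induced by glucocorticoids, at 0.056 log2 units. Mat2a, which makes S-adenosylmethionine, followed at 0.1004 and Zyx, an actin-binding protein of focal adhesions, at 0.103. Zbtb16 was at 43.6 ± 7.63 CPM in SCI and 23.8 ± 2.30 CPM in sham (SD, n = 3 each, edgeR adjusted p = 0.0436). The edgeR adjusted p was 0.0278 for Mat2a and 0.115 for Zyx. These genes were picked for a profile like that of a gene called higher in SCI, so they had to be higher too.

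**Figure D2:**
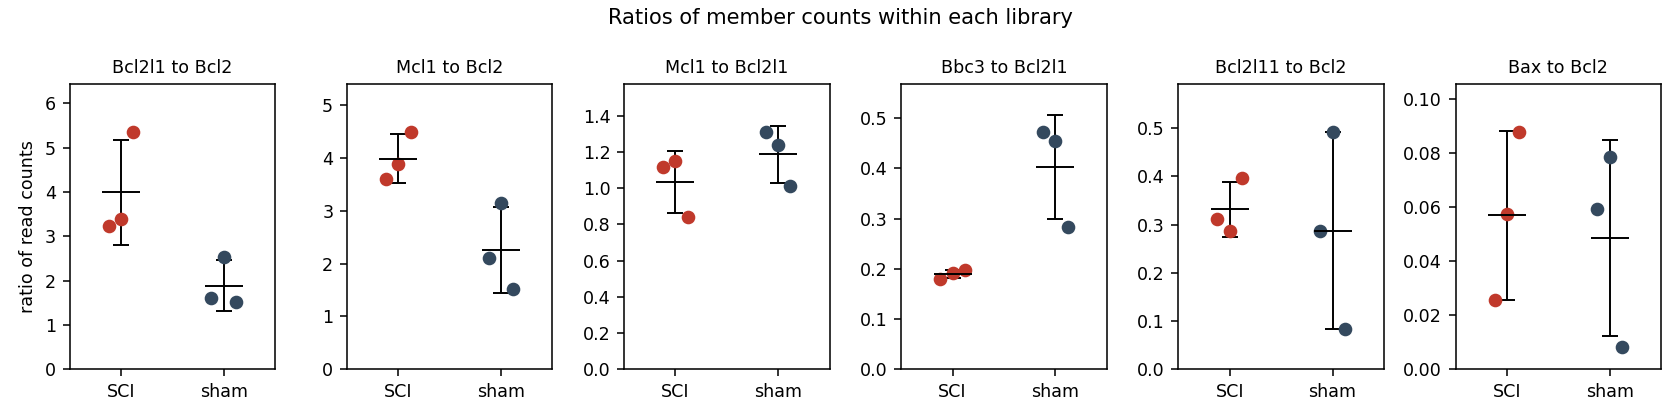
Ratios of read counts of member pairs within each library (vertical axes, each from 0) in the 3 SCI libraries (left, red) and the 3 sham libraries (right, dark), with the mean as a bar and the SD as whiskers. Groups are apart for Bcl2l1 to Bcl2, Mcl1 to Bcl2 and Bbc3 to Bcl2l1, and overlap for Mcl1 to Bcl2l1, Bcl2l11 to Bcl2 and Bax to Bcl2.

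Beyond the 10 members, 15 relatives of the family were listed and 9 of them tested. Bcl2a1a, described above, was the called one, where 0.929% of all genes tested were called. The median log2 fold change was 0.08, beside -0.002 over all genes tested. Bcl2l2, the gene of the guardian BCL-W, was at 8.80, 10.4 and 4.75 CPM in SCI libraries 1 to 3, against 11.9, 12.4 and 12.4 CPM in sham libraries 1 to 3. Every SCI library was below every sham library, and the log2 fold change of -0.60 ± 0.28 did not pass (SE, edgeR adjusted p = 0.675). Bad, a BH3-only gene regulated by growth factor signalling, had a log2 fold change of 0.27 ± 0.21, and Bnip3, a mitochondrial gene of hypoxia and the most abundant relative, was at 312 ± 49.7 CPM in SCI and 294 ± 73.8 CPM in sham (SD, n = 3 each).

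Downstream of the family, the machinery that carries out apoptosis did not pass the test in any gene. Of 16 genes from cytochrome c to the caspases and nucleases, none was called by edgeR, DESeq2 or limma voom. None had an unadjusted edgeR p under 0.05, where 7.38% of all genes tested did, and the median log2 fold change was -0.09. Cycs, the gene of cytochrome c, was at 82.4 ± 10.4 CPM in SCI and 78.9 ± 5.88 CPM in sham. Apaf1, the scaffold of the apoptosome, was at 2.46 ± 0.904 CPM in SCI and 2.32 ± 0.589 CPM in sham, and Casp9, the caspase that it activates, at 9.14 ± 3.99 CPM in SCI and 9.73 ± 1.18 CPM in sham (SD, n = 3 each). The protease gene Htra2 and the flavoprotein gene Aifm1, the pair with the smallest p of this list, had log2 fold changes of -0.71 ± 0.39 and -0.34 ± 0.21 (SE, edgeR adjusted p = 0.754 and 0.812).

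Of 6 tested inhibitors of apoptosis, none was called by edgeR, DESeq2 or limma voom. Over all genes tested, 7.38% had an unadjusted edgeR p under 0.05, and 1 of the 6 did. That was Birc2, the gene of cIAP1, at 18.2, 20.7 and 19.8 CPM in SCI libraries 1 to 3, against 14.5, 11.3 and 16.8 CPM in sham libraries 1 to 3 (edgeR adjusted p = 0.650). Of 8 tested genes of the death receptor pathway, which reaches the mitochondrion through Bid, none was called by any of these tools. Among them 2 had an unadjusted edgeR p under 0.05, where 7.38% of all genes tested did. The receptor Fas was at 5.31, 6.62 and 3.95 CPM in SCI libraries 1 to 3, against 2.75, 3.27 and 1.35 CPM in sham libraries 1 to 3, with a log2 fold change of 1.03 ± 0.38 (SE, edgeR adjusted p = 0.460). The adaptor Tradd was at 7.82 ± 0.542 CPM in SCI and 12.2 ± 1.53 CPM in sham, with a log2 fold change of -0.65 ± 0.24 (SE, edgeR adjusted p = 0.464). Each of the pair had groups that did not overlap, in opposite directions. Of all genes tested, 7.73% had every SCI library above every sham library and 5.94% every SCI library below.

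Upstream, each of 4 lists had 1 gene called higher, where 0.885% of all genes tested were. In the p53 axis, from which Bbc3, Pmaip1 and Bax are transcribed, 1 of 12 tested genes was higher, the cell cycle inhibitor Cdkn1a, with a log2 fold change of 2.05 ± 0.20 (SE, edgeR adjusted p = 5.74e-05). Trp53 itself was at 2.22 ± 0.379 CPM in SCI and 2.47 ± 0.372 CPM in sham (SD, n = 3 each), Btg2 had a log2 fold change of 0.85 ± 0.27 (edgeR adjusted p = 0.333), and the list's median was 0.13. In the integrated stress response, whose factors can act on Bbc3, Pmaip1 and Bcl2l11, 1 of 10 was higher, Atf3 (3.23 ± 0.32, edgeR adjusted p = 6.37e-05), and the median was 0.29. Ddit4, Atf4 and Ddit3 of that list were higher in every SCI library without passing, where 7.73% of all genes tested were higher in every SCI library. Ddit3, the gene of CHOP, was at 32.4 ± 0.765 CPM in SCI and 23.3 ± 5.30 CPM in sham (SD, n = 3 each).

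In the FOXO and AKT axis, whose FOXO factors drive Bcl2l11 and Bbc3, 1 of 8 tested genes was higher, the kinase gene Sgk1 (log2 fold change 1.59 ± 0.19, edgeR adjusted p = 0.000366), and the median was 0.04. Foxo3 had a log2 fold change of -0.01 ± 0.17. In a list of 9 genes drawn up for the turnover or folding of family proteins, 1 was higher, the pseudokinase gene Trib1 (1.22 ± 0.23, edgeR adjusted p = 0.0119). Whether Trib1 acts on a family protein was not tested. Its call was lost without SCI 3 (adjusted p = 0.0775) or sham 1 (0.09995). The ligase gene Huwe1 and the deubiquitinase gene Usp9x, both of which act on MCL1, had log2 fold changes of -0.08 ± 0.20 and -0.24 ± 0.25 (SE).

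**Figure D3:**
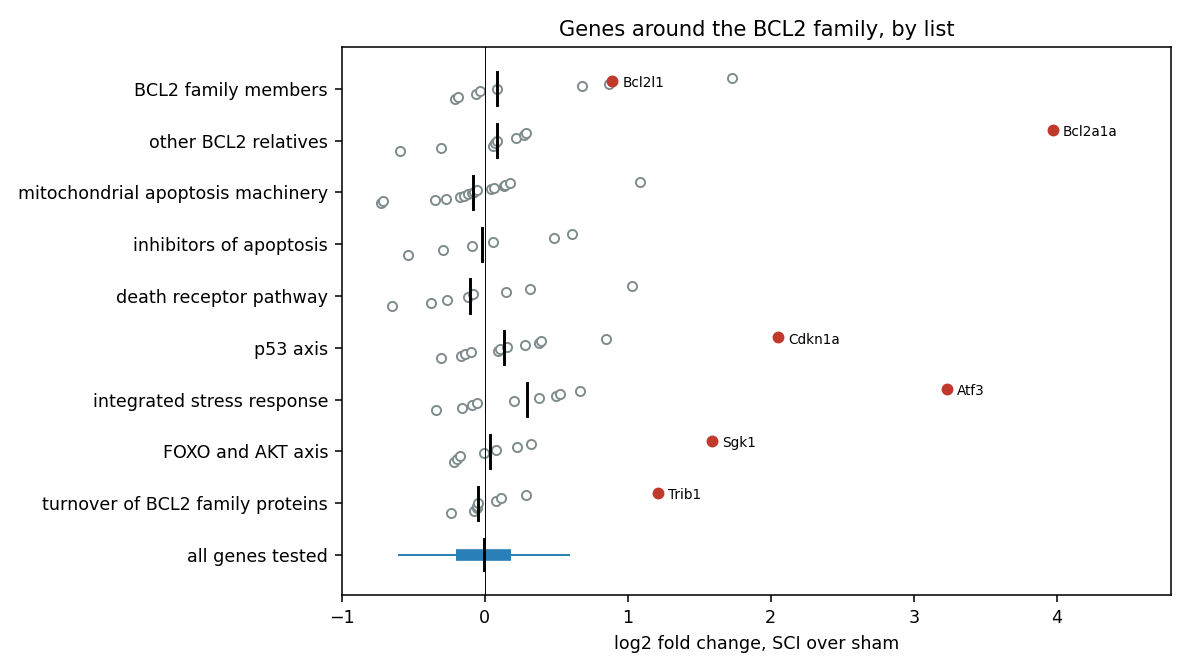
Log2 fold changes of SCI over sham (horizontal axis) for the tested BCL2 family members and the tested genes of 8 lists around them (rows), each point a gene, red and named where the edgeR adjusted p was under 0.05, with a black bar at each median. The bottom row gives all 13560 genes, the thick line from the 25th to the 75th percentile (-0.198 to 0.184) and the thin line from the 5th to the 95th (-0.600 to 0.590); the named points lie to the right of it.

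**Figure D4:**
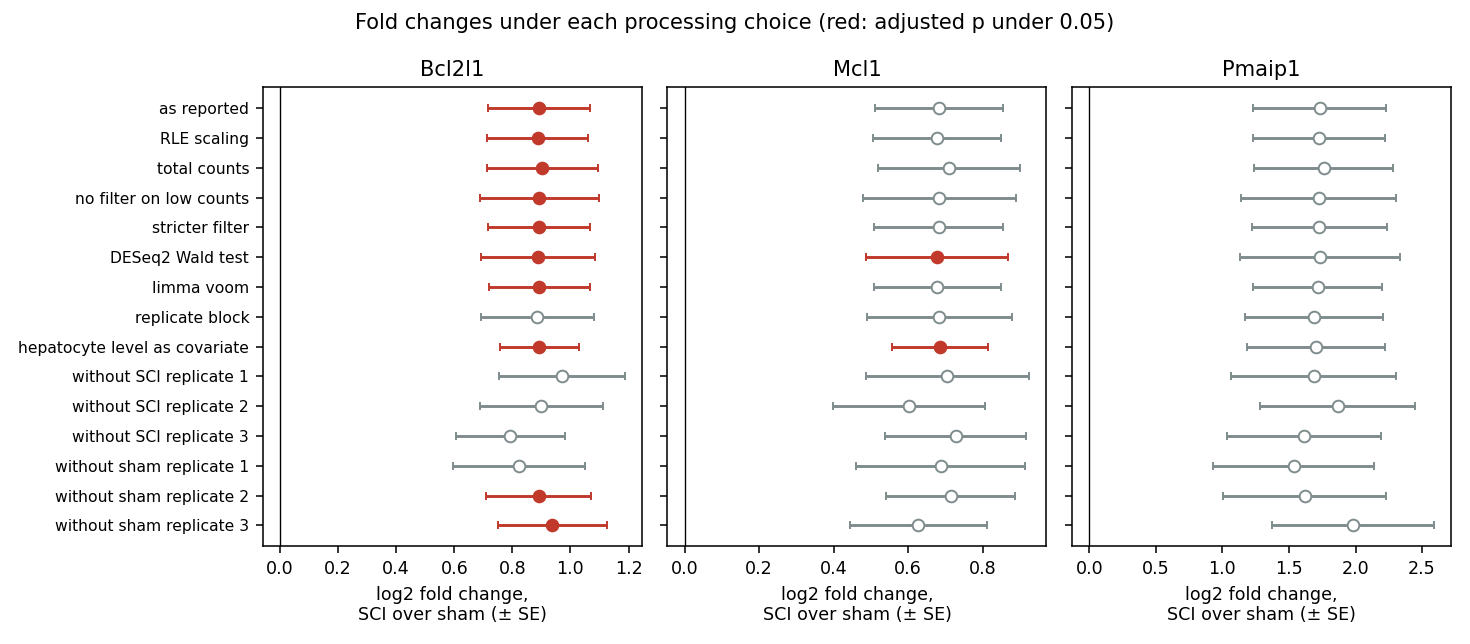
Log2 fold changes of SCI over sham with SE (horizontal axes) of Bcl2l1, Mcl1 and Pmaip1 as reported and under 14 processing alternatives (rows), red where the adjusted p was under 0.05. All points lie right of 0, with Bcl2l1 red in 9 of the 14 alternatives, Mcl1 in 2 and Pmaip1 in 0.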

How the data were processed

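Per the labels' design text, RNA of 3 SCI and 3 sham cords was made into Lexogen QuantSeq Forward libraries, and reads were aligned with STAR 2.7.2b to mm10 with Ensembl annotation of GRCm38. DESeq2 1.24.0 is among the tools in the submitters' processing notes. The authors deposited whole-number read counts per gene, not normalized, 1 table per library. The counting tool, with its handling of strand and of reads with several matches, is not given in the sources used here. Symbols came from a table that matched all but 970 of the 43432 identifiers, and positions from GENCODE M21 on GRCm38.

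Genes were kept by edgeR's filterByExpr, which left 13560 of 21524 with at least 1 count, scaled by TMM and compared by edgeR's quasi-likelihood F test (edgeR 4.0.16, limma 3.58.1, DESeq2 1.42.0, R 4.3.3), with Benjamini-Hochberg adjustment over all genes tested. Each SE was obtained from the fold change and its F value, as the size of the log2 change over the root of F. The procedure was tested on simulated data. Count ratios use total counts and exact binomial limits at 95%, which cover counting error only. Members, gene lists and alternatives were chosen with earlier results of these data known. Named genes were the members, the 3 genes of smallest p in each of 8 pathway lists, the 2 most abundant of each cell type list and the 3 genes nearest to a called member in profile. Some genes under this rule are not reported here, and Cycs, Apaf1, Casp9, Bnip3, Trp53, Ddit3, Foxo3, Huwe1, Ly6g, Retnlg, Mmp8, Camp, Mmp9 and Alas2 were named after their values were seen. Libraries of a group differed beyond sampling noise (chi-square over its degrees of freedom between 6.97 and 38.0), so none was treated as a duplicate. The design text counts 3 mice per group, and libraries were taken as separate animals. Scaling, filter, tool, a hepatocyte covariate, a replicate block and each library left out were the alternatives.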

Additional observations from a re-analysis of the deposited data

How the results depend on the processing

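Over all genes tested, 120 were higher and 6 lower in SCI. With no filter on low counts these were 182 and 42, with a hepatocyte covariate 218 and 31, and with DESeq2 141 and 11. Leaving out each library in turn gave 62 to 132 higher and 1 to 14 lower. Members called higher numbered 1 with all libraries and 0 to 1 with a library left out. They were 2 with DESeq2 and 2 with the hepatocyte covariate (Bcl2l1 and Mcl1), and 2 with the Bcl2a1 copies summed (Bcl2l1 and the summed gene). No member was called lower in any of these fits. With the replicate number as a block, 81 genes were higher and 1 lower, and 0 members were called (Bcl2l1 adjusted p = 0.119 at a log2 fold change of 0.89). Equal numbers marked no shared animal or day in the labels, so the numbers were not taken to pair the mice. Same-numbered libraries deviated from their group means with correlations of -0.0848, -0.0654 and -0.172 over 13560 genes. With 3 libraries per group, such values cannot exclude a shared day. The block also took the calls of Bcl2a1a and Trib1.

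Fold changes near 0 turned sign. Bax was 0.0011 with total counts, 0.0085 with DESeq2 and 0.15 with the hepatocyte covariate on the log2 scale, and -0.36 to 0.31 with a library left out; it was not tested without sham 1. Bid was 0.0305 with total counts and -0.77 to 0.43 with a library left out. With a library left out Bcl2 ranged from -0.40 to 0.0013, Bcl2l11 from -0.21 to 0.38 and Usp9x from -0.48 to 0.0117. The cause was not tested. Counts of calls in the pathway lists were unchanged in 211 recomputed values, most of which were counts of 0 that stayed at 0. The 13 others differed by 1 or 2 genes, and all of them fell on lists that had a called gene. Bax, Bak1, Pmaip1 and Bid had 1 to 33 counts per library, and their fold changes carry SEs of 0.45 to 0.61; that of Bid was 0.43 without SCI 3.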
